A study of Mus musculus with 12 samples.

Results

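Hepatic transcripts were compared between livers with high and with low Dbp, the gene for a transcription factor whose messenger RNA oscillates strongly over the day in mouse liver. The classes were defined by the Dbp level itself. A liver with Dbp at 10 TPM or more was called high-Dbp, TPM being the deposited unit of transcript abundance, each gene's length-scaled share of its library. Of 12 livers, 4 met this rule (control livers 5 and 6 and selenium livers 1 and 5), and 8 did not (control livers 1 to 4 and selenium livers 2, 3, 4 and 6). Dbp stood at 15.7 and 28.5 TPM in control livers 5 and 6 and 31.4 and 53.6 TPM in selenium livers 1 and 5, against 0.72, 1.12 and 1.44 TPM as the lowest, median and highest of the 8 low-Dbp livers. The liver just inside the threshold had 15.7 TPM and the one just outside had 1.44 TPM. Because a measured level chose the classes, every high-against-low value below is a description and carries no p-value.

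The mice were wild-type males of the C57BL/6J strain, 6 weeks old at assignment after 7 days of acclimatization, and all ate a normal diet. Control mice had no selenium treatment. Selenium mice received selenium-enriched Aspergillus oryzae A02 in saline by daily gavage at 0.5 mg Se per kg. The design text gives a feeding period of 8 weeks and the sample descriptions mention 14 weeks, so the age at collection is uncertain, and the hour of collection is not among the labels used here. The protocol lists 10 mice per group, and 6 libraries per group were analysed. The samples are labelled as hepatocyte and as liver. Hepatocyte transcripts were abundant in every library (summed hepatocyte markers 41927 to 65607 TPM in low-Dbp and 39801 to 63069 TPM in high-Dbp livers), and macrophage, endothelial and erythroid transcripts were also present. In bulk tissue of this kind, fewer cells of a type and less RNA per cell cannot be told apart. Each library is taken as 1 mouse, as the replicate labels imply. Each treatment group held 2 high-Dbp and 4 low-Dbp livers. Where p-values are given, they measure the spread between these livers.

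Single livers differed from the rest in ways that touch the comparisons. Control liver 5, a high-Dbp liver, had the highest summed B cell (1480.2 TPM), T and NK cell (45.8 TPM) and neutrophil (97.9 TPM) markers. Control liver 6, also high-Dbp, had the highest erythroid sum (4271 TPM). Control liver 4, a low-Dbp liver, had the highest Cry1 (12.8 TPM) and Igfbp1 (90.0 TPM). Selenium liver 3, low-Dbp, had the highest Saa1 (8641 TPM) and macrophage marker sum (512 TPM). Selenium liver 4, low-Dbp, had summed muscle markers of 157 TPM, against at most 0.25 TPM in the other 11. Without selenium liver 4 the same 17 genes stood apart between the classes as with all livers.

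In the mammalian clock, ARNTL (BMAL1) and CLOCK bind E-boxes and activate the Per, Cry, Nr1d1, Nr1d2, Bhlhe40, Bhlhe41, Ciart, Dbp and Tef genes, and the PER and CRY proteins feed back on this activation. NR1D1 and NR1D2 (REV-ERB alpha and beta) repress, and the ROR factors activate, genes such as Arntl and Nfil3 through shared response elements. DBP, TEF and HLF, the PAR bZIP factors, activate genes through D-boxes, and NFIL3 competes with them there. In mouse liver, E-box-driven transcripts such as Nr1d1 and Dbp peak during the light phase, and Arntl peaks at a nearly opposite time.

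The 3 element types are shown here in promoters of clock members, to show which letters each arm of the loop is named for. RefSeq promoter windows on GRCm38.p6, each covering 250 bases before to 50 after an annotated start, were found for 16 of the 19 clock members. The E-box letters searched were CACGTG, the D-box letters TTATGTAA and TTACGTAA, and the core of the ROR and REV-ERB element TAGGTCA, all on both strands. No match of 1 type overlapped a match of another in the clock members. Of all 32851 windows, 7.15% held the E-box letters, 1.06% a D-box and 2.61% the ROR and REV-ERB core. Capitals mark the matches.
Ciart, chr3:95882247-95882364, minus strand, 3 E-boxes: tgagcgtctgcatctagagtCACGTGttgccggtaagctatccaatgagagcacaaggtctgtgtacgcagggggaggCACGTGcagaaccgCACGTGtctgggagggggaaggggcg
Tef, chr15:81802526-81802571, plus strand, E-box: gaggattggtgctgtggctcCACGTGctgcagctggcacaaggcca
Per3, chr4:151044796-151044890, minus strand, 2 D-boxes: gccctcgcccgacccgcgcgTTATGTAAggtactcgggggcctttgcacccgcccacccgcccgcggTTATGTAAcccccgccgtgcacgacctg
Nfil3, chr13:52981040-52981071, minus strand, ROR and REV-ERB core on the opposite strand: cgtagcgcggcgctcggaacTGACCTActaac
Arntl, chr7:113207533-113207555, plus strand, ROR and REV-ERB core just after the start: gcagaaagTAGGTCAgggacgga
The first 4 stretches lie upstream of the start site. E-box letters were also present in windows of Per1, Cry1 and Bhlhe41, so 5 of the 16 members held them. A D-box was found in 1 of the 16 and the ROR and REV-ERB core in 2. A member counts here if any of its windows held a match, whereas the shares above are of single windows, so the figures are not directly comparable. The windows of Dbp, Nr1d1 and Nr1d2 held none of these letters, which says nothing about elements elsewhere in those genes. No binding was measured, and the matches are descriptions of sequence.

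Among the PAR bZIP factors, Tef was higher and its competitor Nfil3 was lower in all 4 high-Dbp livers, while Hlf differed little. Tef stood at 10.2 and 18.1 TPM in control livers 5 and 6 and 11.9 and 11.4 TPM in selenium livers 1 and 5, and the 8 low-Dbp livers had 2.81, 3.73 and 5.83 TPM as lowest, median and highest. The groups did not overlap, and the treatment-adjusted difference was 1.50 on the log2(TPM + 1) scale, used for all differences here (it understates the change of genes near 1 TPM). Nfil3 stood at 6.84 and 12.5 TPM in control livers 5 and 6 and 7.14 and 6.44 TPM in selenium livers 1 and 5, below the 13.2 to 28.4 TPM of the low-Dbp livers, a difference of -1.30. Within the low-Dbp livers, Nfil3 was 23.2 to 28.4 TPM in the 4 selenium livers and 13.2 to 26.1 TPM in the 4 controls, and this difference did not pass the test (limma, adjusted p = 0.198). Hlf was 5.65 to 11.1 TPM in high-Dbp and 4.64 to 8.88 TPM in low-Dbp livers, overlapping widely (difference 0.30). Dbp itself, which set the classes, differed by 3.90.

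In the repressor arm, both REV-ERB genes were higher in every high-Dbp liver than in any low-Dbp liver. Nr1d1 was 21.9 and 27.1 TPM in control livers 5 and 6 and 27.9 and 29.3 TPM in selenium livers 1 and 5, against 1.04, 5.76 and 18.1 TPM as lowest, median and highest of the low-Dbp livers, a difference of 2.29. Nr1d2 was 9.21 to 13.8 TPM in the high-Dbp livers and 3.14 to 6.27 TPM in the others, a difference of 1.19 (means 11.2 ± 2.22, SD, n = 4, and 4.37 ± 1.17, SD, n = 8). Cry2, one of the pair of cryptochrome repressors, also showed no overlap, at 2.87 to 5.86 against 1.31 to 2.17 TPM, with a smaller difference of 0.85. Bhlhe40 (DEC1), an E-box-binding repressor, differed by 0.86. Its 10.9 TPM in selenium liver 3 lay within the high-Dbp range of 7.48 to 11.2 TPM, and the other 7 low-Dbp livers lay below it. Per2, Per3 and Bhlhe41 were too low for the filter on low values (1 TPM in at least 6 livers), and none of them overlapped: Per2 was 0.88 to 1.32 against 0.19 to 0.68 TPM, Per3 0.27 to 0.82 against 0.05 to 0.19 TPM and Bhlhe41 (DEC2) 0.31 to 1.69 against 0.01 to 0.17 TPM. These levels lie near the floor, and the read depth behind them is unknown. The share of genes under the filter that are free of overlap was not counted, so nothing further is read from them.

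The other repressors did not follow the classes. Cry1 was 2.4 to 5.65 TPM in the high-Dbp livers and 2.62 to 4.75 TPM in 7 low-Dbp livers, and control liver 4 stood at 12.8 TPM. Per1 divided the high-Dbp livers themselves, with 4.42 TPM in control liver 6 and 1.24, 0.52 and 1.08 TPM in the other 3, against 1.49 to 3.84 TPM in the low-Dbp livers. Ciart (CHRONO), whose window holds 3 E-boxes, reached 4.88 TPM in control liver 6 and 2.41 TPM in selenium liver 5. Its levels in control liver 5 (0.32 TPM) and selenium liver 1 (0.65 TPM) lay within the 0 to 0.84 TPM of the low-Dbp livers. Of the 6 repressors that passed the filter, 3 did not overlap between the classes and 2 of these (Nr1d1 and Nr1d2) also differed by at least 1. Over all genes that passed the filter, 0.21% were higher without overlap and 0.0601% were so with a difference of at least 1.

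On the activator side Arntl was lower in the high-Dbp livers, at 3.9 and 3.88 TPM in control livers 5 and 6 and 2.53 and 2.15 TPM in selenium livers 1 and 5. In 7 of the 8 low-Dbp livers it was between 6.1 and 8.29 TPM. Selenium liver 2 was the exception with 3.51 TPM, between the high-Dbp selenium livers and the high-Dbp controls, so the classes overlapped, and the difference was -0.92. Npas2, a CLOCK paralogue under the filter, was 1.27 to 1.88 TPM in low-Dbp controls, 1.03 and 0.71 TPM in the high-Dbp controls, 0.63 to 0.8 TPM in low-Dbp selenium livers and 0.23 and 0.15 TPM in the high-Dbp selenium livers. It was therefore lower in the high-Dbp livers within each treatment, although the classes overlapped when pooled. Clock differed by -0.06 and Rora by -0.11, both within the spread between livers, and the Clock difference turned to 0.04 under median-of-ratios scaling. The turnover factors of clock proteins, such as the kinases Csnk1d and Csnk1e, had a median difference of -0.01 over 6 measured genes (0.10 with median-of-ratios scaling and -0.27 without control liver 6), and none was free of overlap. Levels of different genes are not compared here, only each gene between livers.

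**Figure D1:**
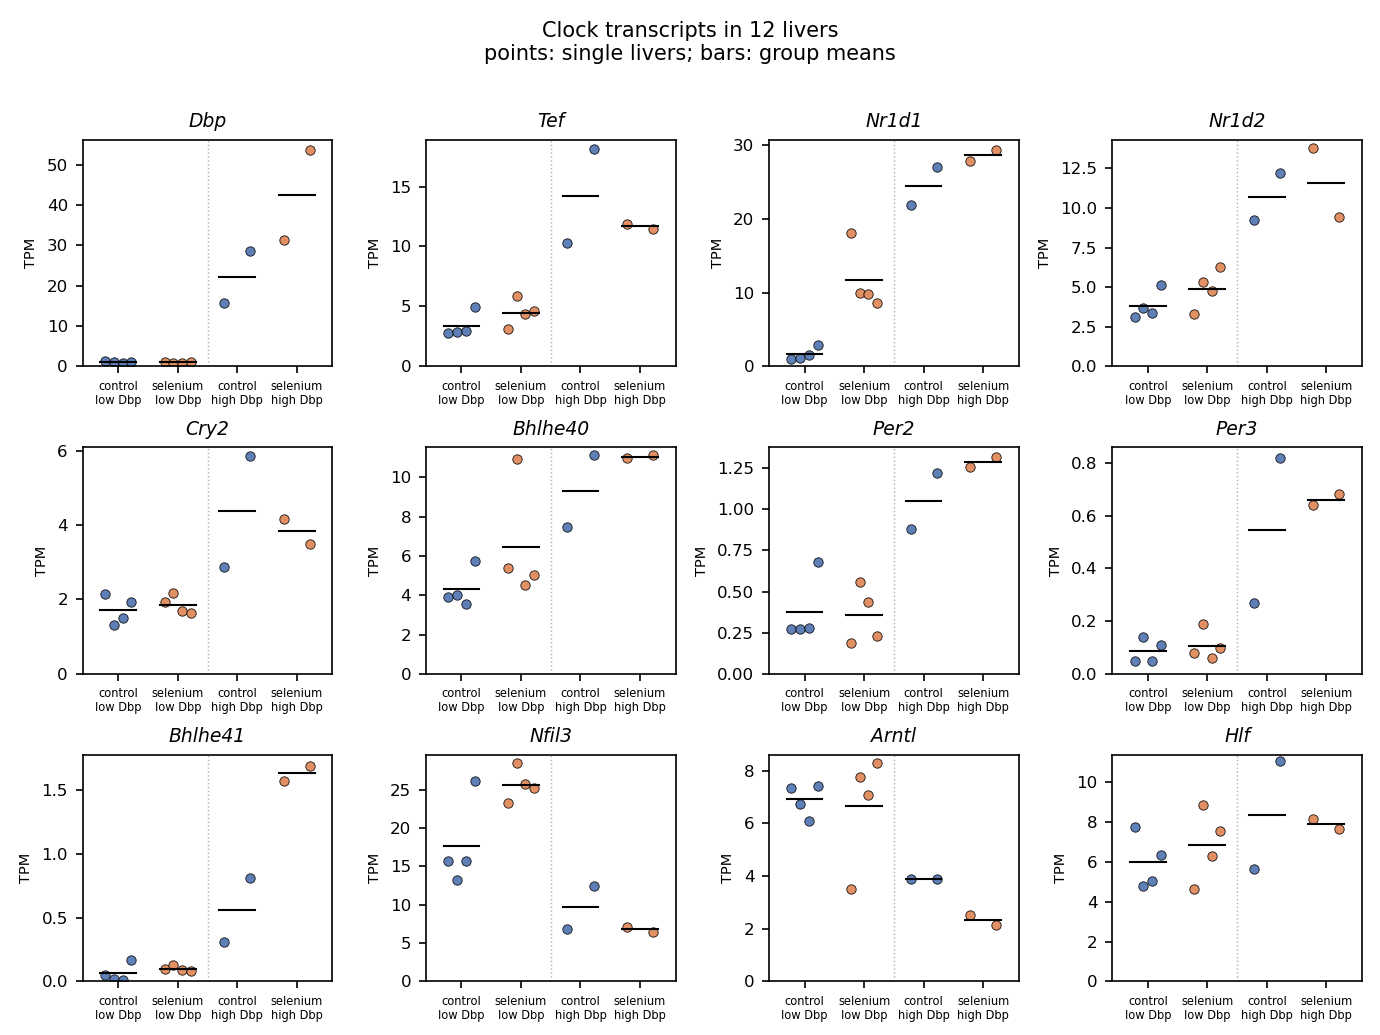
Level in TPM (linear axis from 0) of 12 clock transcripts in each liver, by treatment and Dbp class; each point is 1 liver and each bar a group mean. Tef, Nr1d2, Cry2, Per2, Per3 and Bhlhe41 are higher and Nfil3 lower in all 4 high-Dbp livers. Per2, Per3 and Bhlhe41 lie under the filter on low values. Nr1d1 takes an intermediate range of 8.6 to 18.1 TPM in the low-Dbp selenium livers, and Hlf overlaps.

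The low-Dbp livers were not uniform, and treatment was tested within them, since the treatment labels did not enter the rule. The class itself rests on a level measured after treatment, and the p-values take no account of that choice. Nr1d1 was 1.04, 1.1, 1.58 and 2.92 TPM in the 4 low-Dbp controls and 18.1, 9.98, 9.86 and 8.6 TPM in the 4 low-Dbp selenium livers. All selenium livers stood above all controls, and the difference of 2.24 (95% interval 1.72 to 2.77) passed the test, a rise in all 4 selenium livers, with an adjusted p of 0.0066 (limma over 9979 genes, Benjamini-Hochberg). In the same livers the Dbp ranges of the treatments overlapped, at 0.92 to 1.44 and 0.72 to 1.16 TPM. Arrdc3, an alpha-arrestin gene, had the same pattern. It was 3.32, 3.79, 4.92 and 3.91 TPM in low-Dbp controls and 15.6, 27.9, 16.3 and 18.4 TPM in low-Dbp selenium livers, a rise of 2.02 (adjusted p = 0.0069, limma). With replicate number as a block, adjusted p was 0.0874 for Nr1d1 and for Arrdc3 alike, although the numbers do not pair the samples, and with the Dbp threshold at 20 TPM it was 0.115 and 0.151. Over all 22 alternatives adjusted p ranged from 0.00224 to 0.115 for Nr1d1 (20 past the threshold) and from 0.00369 to 0.151 for Arrdc3 (19).

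No other clock member passed the test between treatments in the low-Dbp livers. In total 2 genes rose there (0.02% of those tested) and 3 fell (0.0301%). All 3 that fell are on the list of 19 splicing and nuclear RNA genes: Rsrp1, an arginine and serine rich protein gene, by a log2 difference of -1.27, the kinase gene Clk1 by -1.26 and the splicing factor gene Srsf5 by -1.08 (adjusted p = 0.0066, 0.0167 and 0.0403, limma). That list was written with earlier results of these data known, so their place on it is no independent support. Without adjustment, 1196 genes were higher and 680 lower at p under 0.05. The count of 5 became 13 (2 higher and 11 lower) with median-of-ratios scaling and 12 (4 and 8) with quantile normalization. Leaving out 1 liver gave 61 without control liver 5, 56 without control liver 6, 10 without control liver 3 and 3 without control liver 1, control liver 2 or selenium liver 4; Nr1d1 and Arrdc3 passed in each case.

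In the 4 high-Dbp livers Nr1d1 did not separate the treatments: the selenium minus control difference was 0.22 (95% interval -0.52 to 0.97), and for Arrdc3 it was 0.27 (-0.46 to 1.00). The test of whether the selenium difference itself differs between the classes gave -2.02 for Nr1d1 (adjusted p = 0.32) and -1.75 for Arrdc3 (adjusted p = 0.443), neither past the threshold (limma). The high-against-low difference of Nr1d1 was accordingly 3.30 among controls and 1.28 among selenium livers, and that of Arrdc3 was 2.77 and 1.02.

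Over all 9980 genes that passed the filter, the 4 high-Dbp livers stood apart from the 8 others for 17 genes, meaning no overlap and a treatment-adjusted difference of at least 1 in size. Of these 6 were higher (0.0601% of genes) and 11 lower (0.11%). Of the 6 higher genes, 4 were clock members: Dbp, placed there by the rule itself, and Nr1d1, Tef and Nr1d2. The other two were Cebpa, a hepatocyte transcription factor gene at 86.6 to 122 against 38.9 to 68.2 TPM (difference 1.02), and Tns2, encoding the focal adhesion protein tensin 2, at 12.8 to 23.1 against 4.87 to 10.8 TPM (1.02). With no minimum size, 21 genes were free of overlap and higher (0.21%) and 98 lower (0.982%). The median difference over all genes was -0.10, and it became 0.00 with quantile normalization and 0.01 with median-of-ratios scaling, so differences are to be read against that shift. By sign, 25.4% of all genes were higher in the high-Dbp livers. Counts of higher and lower list members below are to be read against that share, which holds for all livers with treatment adjusted. No such share was counted within a treatment, where the all-gene medians were 0.01 in controls and -0.22 in selenium livers. Under quantile normalization and median-of-ratios scaling alike, 12 of the 17 genes remained apart, 6 higher and 6 lower.

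The 11 lower genes included regulators of growth and metabolism besides Nfil3. Cdkn1a, encoding the cell cycle inhibitor p21, was 6.97 and 13 TPM in control livers 5 and 6 and 1.42 and 0.91 TPM in selenium livers 1 and 5, against 19 to 36.9 TPM in low-Dbp livers (-2.46). G6pc, encoding the catalytic subunit of glucose-6-phosphatase, was 21.2 and 55.5 TPM in control livers 5 and 6 and 26.7 and 38.3 TPM in selenium livers 1 and 5, against 62.7 to 157 TPM (-1.40). Nnmt, nicotinamide N-methyltransferase, was 3.45 to 5.8 against 12.8 to 48.9 TPM (-2.12). Eif4ebp3, encoding a binding partner of the translation factor eIF4E, was 4.05 to 9.68 against 10.4 to 86.9 TPM (-1.62), with its highest value in control liver 4. The remaining lower genes included the interferon-inducible GTPase genes Iigp1 (43.8 to 108 against 119 to 709 TPM, -2.10) and Gvin2 (-2.14), Trafd1 (-1.11), Apol9b (-1.09) and Lbp, the gene of the lipopolysaccharide-binding protein (22.8 to 64.7 against 71.3 to 142 TPM, -1.25). BC023105, named here after its values were seen, had the lowest difference of all, -3.84, at 0.65 to 10.1 against 12.2 to 201 TPM. Of the 17 genes apart, 11 had a promoter window on GRCm38.p6. The G6pc window, picked after its matches were seen, held both a D-box and a ROR and REV-ERB core. The windows of Apol9b, Cdkn1a, Cebpa, Tns2 and Trafd1 held none of the letters searched. The part of such elements in the differences was not tested.

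**Figure D2:**
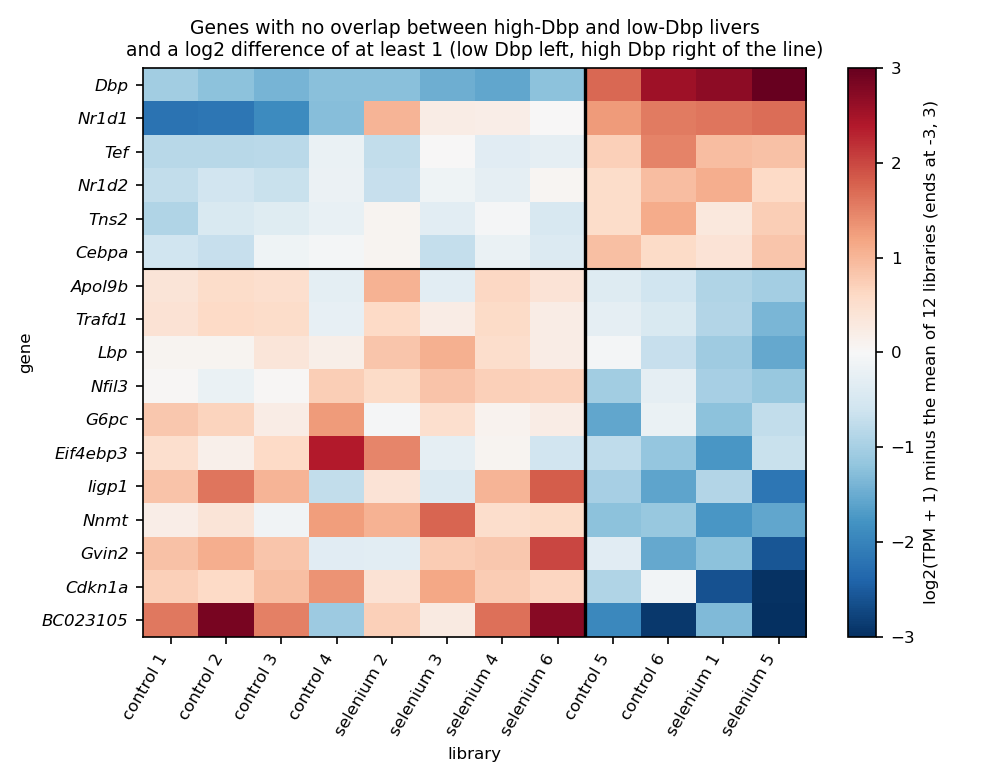
Heat map of the 17 genes that stood apart, in rows ordered by their high minus low difference, over the 12 livers in columns; colour is log2(TPM + 1) minus the gene's mean over the 12 livers. Low-Dbp livers are left of the vertical line, and among them control liver 4 has the lowest Iigp1, Gvin2 and BC023105.

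Which genes stood apart depended on single livers. The count was 93 without control liver 5 (16 of the 17 among them, Cebpa lost), 36 without control liver 4, 31 without control liver 6 and 29 without selenium liver 1. With a threshold of 20 TPM, which puts control liver 5 in the low class, it was 87. The clock genes Nr1d1, Nr1d2, Tef and Nfil3 remained apart without control liver 5, and no change of scaling moved a clock gene that stood apart to the other side.

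The treatments can be set beside each other because they share no liver. Among controls alone (2 high against 4 low) 76 genes stood apart, which is 0.762% of genes, 42 of them higher and 34 lower. Among selenium livers alone there were 230 (2.3%), 18 higher and 212 lower. In both and in the same direction were 19, which is 25.0% of the control list and 8.26% of the selenium list. The 5 higher in both were Dbp, Nr1d1, Nr1d2, Tef and Arrdc3. Dbp set the classes, so its place in the 19 and in both lists was fixed by the rule. The 14 lower in both, listed after their values were seen, were BC023105, Cdkn1a, Igfbp1, Gbp10, Gvin2, Nnmt, Iigp1, Irgm2, Gbp6, Eif4ebp3, G6pc, Pdk4, Hspa1b and Trp53inp1. Of these 14, Gbp6, Gbp10, Iigp1 and Irgm2 encode interferon-inducible GTPases, and G6pc, Pdk4 and Igfbp1 are raised by fasting. These groupings were made after the values were seen. The whole list of interferon-stimulated genes had a median of -0.11 among controls and -1.12 among selenium livers. That of fasting-response and PPAR-alpha target genes had -0.04 and -0.30, with 10 of 30 members higher among controls. Gm10243 and Nupr1 stood apart in opposite directions. The median over all genes was 0.01 in controls and -0.22 in selenium livers. Among the high-Dbp livers the selenium pair had the larger share of all TPM in their 10 most abundant transcripts (48.1% and 45.6%, against 34.6% and 40.5% in the control pair), and the part of this in the difference was not tested.

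**Figure D3:**
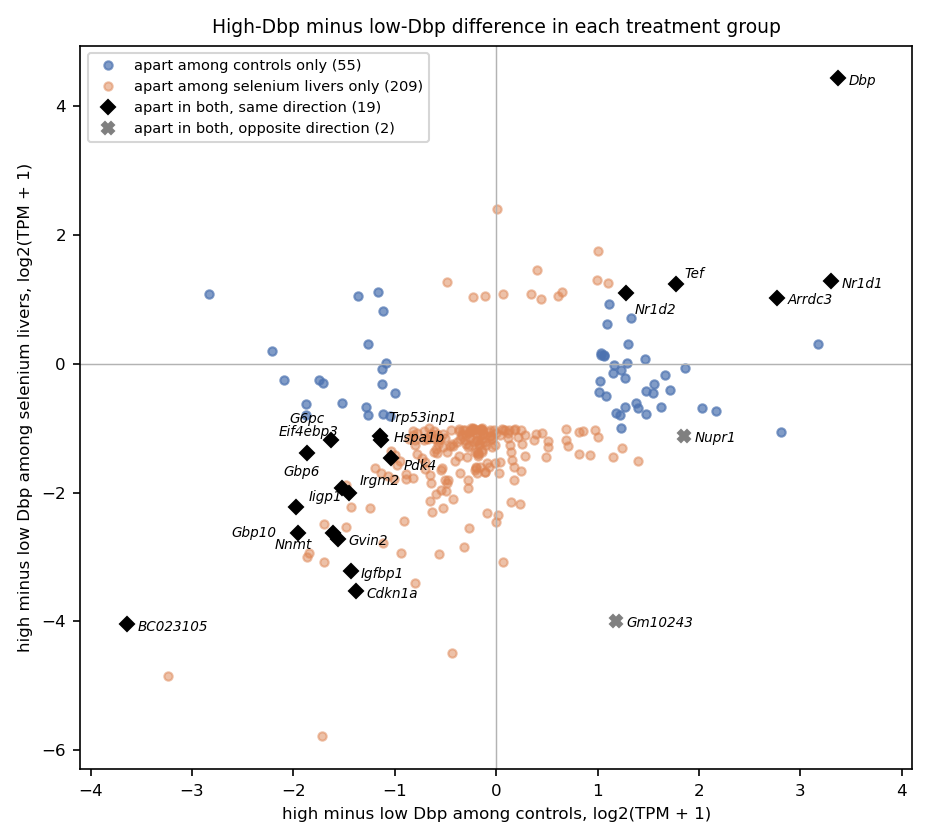
High minus low Dbp difference on the log2(TPM + 1) scale among controls (horizontal) and among selenium livers (vertical), for genes that stood apart in at least 1 of the treatments; each symbol is a gene. The 19 black diamonds are the genes apart in both in the same direction, Dbp (which set the classes) and Nr1d1 at the upper right and BC023105 at the lower left.

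Genes with daily rhythms downstream of the clock were described from a list of 37 liver output genes. Of the 33 measured, 9 were higher and 24 lower in high-Dbp livers, with a median of -0.24 (-0.12 with median-of-ratios scaling and -0.46 without control liver 6) beside -0.10 for all genes, and only Cdkn1a stood apart. The share of higher members was near the 25.4% of all genes that were higher. Alas1, the first enzyme of haem synthesis, was 28.3 TPM in control liver 5, 179.9 in control liver 6, 104 in selenium liver 1 and 43.1 in selenium liver 5. The low-Dbp livers had 139 to 334 TPM, so control liver 6 overlapped them (difference -1.68). Nampt, the rate-limiting enzyme of NAD salvage, was 4.38 to 8.37 against 6.6 to 12.8 TPM (-0.57). Of 15 measured detoxification genes known as PAR bZIP targets, 1 was higher and 14 were lower (median -0.27, -0.14 with median-of-ratios scaling and -0.07 without control liver 5), and none was free of overlap. The higher one was Cyp2a5, a coumarin hydroxylase, at 270.0 and 268 TPM in control livers 5 and 6 and 98.8 and 258 TPM in selenium livers 1 and 5, against 100.2 to 185 TPM. Cyp3a13 was 4.53 to 8.2 against 8.09 to 18.6 TPM (-0.95). Most transcripts of this list were thus not higher in the livers with higher Dbp and Tef transcripts. Without control liver 5 the all-gene median was -0.11, beside the -0.07 of the list. The part of DBP and TEF in these levels was not tested.

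Metabolic lists differed little in the median. Fatty acid synthesis genes had a median of 0.09, with 16 of 20 higher, and of -0.01 without control liver 6. Thrsp, a lipogenic regulator, was 51.5 and 60.2 TPM in control liver 6 and selenium liver 5, but 13.7 and 18.3 TPM in the other two high-Dbp livers, against 6.3 to 19.6 TPM in low-Dbp livers. Fasting-response and PPAR-alpha target genes had a median of -0.17, with 26 of 30 lower, and of -0.02 with quantile normalization and -0.04 with median-of-ratios scaling. Pdk4, pyruvate dehydrogenase kinase 4, was 0.72 to 1.78 against 1 to 11.9 TPM (-1.25), overlapping through selenium liver 2 (1 TPM). Irs2, an insulin receptor substrate gene named after its values were seen, was 0.86 to 1.14 against 1.75 to 5.72 TPM without overlap (-0.88). Bile acid genes had a median of -0.14. Cyp7a1, the rate-limiting enzyme of bile acid synthesis, was 1.54 and 6.51 TPM in the high-Dbp controls and 7.67 to 52.9 TPM in the low-Dbp controls, while 8.92 and 3.07 TPM stood against 5.26 to 8.2 TPM among selenium livers. The medians for cholesterol genes (-0.09), bile acid genes and selenoproteins (-0.13) went to 0.05, 0.00 and 0.04 with quantile normalization, so no direction is read from them. Amino acid catabolism and urea cycle genes had a median of -0.23 (-0.08 with quantile normalization and -0.02 without selenium liver 1) and glycogen and glucose genes 0.11 (-0.03 without control liver 6). Immediate early genes had a median of -0.22, with 15 of 16 lower. Their median was 0.12 among controls, where 9 of the 16 were higher, and -0.67 among selenium livers, where all 16 were lower. The all-gene medians were 0.01 among controls and -0.22 among selenium livers, and the share of genes lower within each was not counted. Gpx1, an abundant selenoprotein gene, was 1513 to 1726 against 1926 to 2584 TPM without overlap (-0.46).

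Glucocorticoid-responsive genes had a median difference of -0.53, with -0.20 among controls and -0.88 among selenium livers, with 11 of 16 lower and none free of overlap. The split by sign was near that of all genes, of which 25.4% were higher. The 2 metallothionein genes, which buffer zinc and copper and respond to glucocorticoids, were lower in the high-Dbp selenium livers than in any other liver. Mt1 was 38.9 and 40.0 TPM there, 623 to 1186 TPM in the low-Dbp selenium livers, 802 and 217 TPM in the high-Dbp controls and 468 to 627 TPM in the low-Dbp controls. Mt2 was 8.99 and 9.53 TPM against 440.1 to 758 TPM in selenium livers. In controls 5 and 6 it was 409.9 and 48.9 TPM against 313 to 816 TPM. Igfbp1, encoding an insulin-like growth factor binding protein, was 14.2 and 11.7 TPM in control livers 5 and 6 and 1.31 and 1.8 TPM in selenium livers 1 and 5, against 10.1 to 90.0 TPM in low-Dbp livers, where only selenium liver 2 (10.1 TPM) lay inside the high-Dbp range (-2.33). The selenium difference in Mt1 was -3.37 in high-Dbp and 0.69 in low-Dbp livers. The test of that contrast gave -4.06 (95% interval -5.32 to -2.80) with an adjusted p of 0.139, the smallest of all genes and not past the threshold (limma). The all-gene median of that contrast was -0.23, and 0.00 with median-of-ratios scaling.

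**Figure D4:**
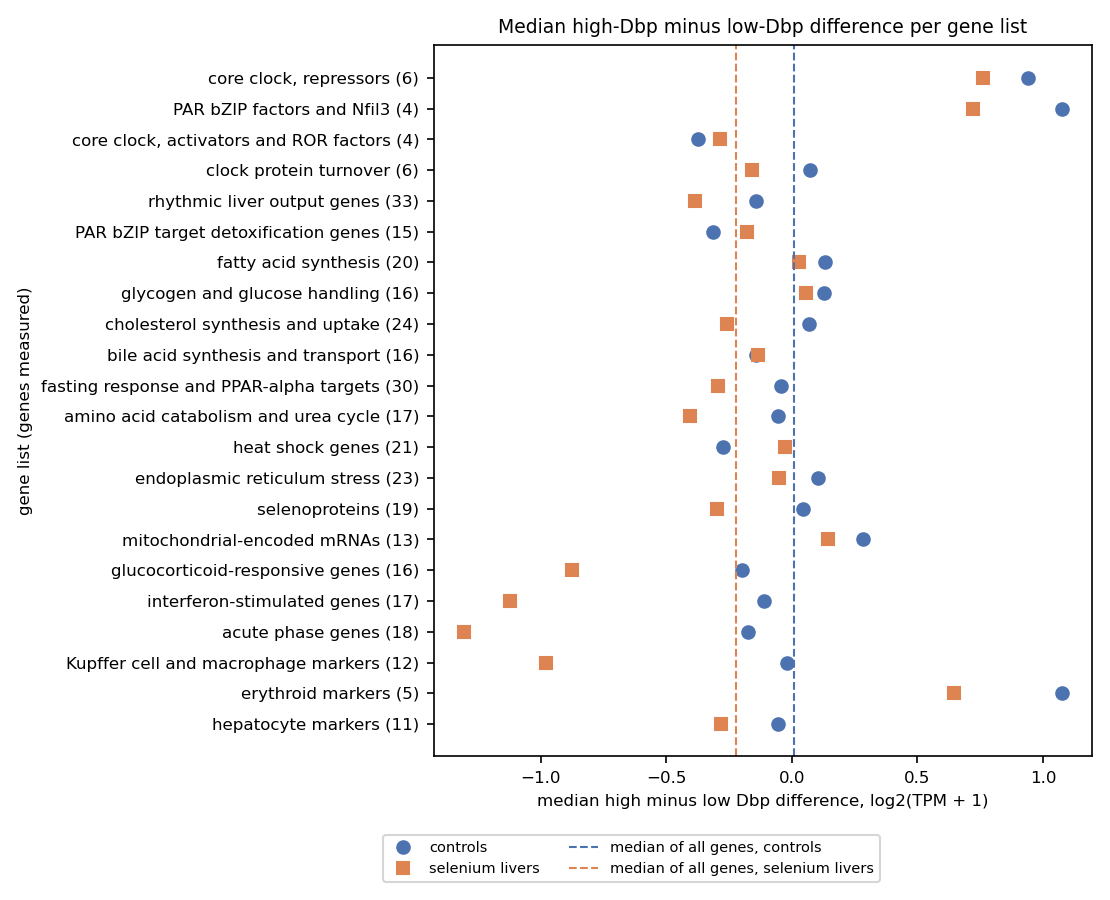
Median high minus low Dbp difference on the log2(TPM + 1) scale for 22 gene lists (measured genes in brackets), among controls (circles) and selenium livers (squares); dashed lines are the medians of all genes in each treatment. Clock repressors and the list of PAR bZIP factors and Nfil3 lie to the right in both treatments. The latter list has 4 genes and includes Dbp, which set the classes, so its place is partly fixed by the rule. The interferon, acute phase, glucocorticoid and macrophage lists lie far to the left among selenium livers.

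Interferon-stimulated genes were lower in the high-Dbp livers on all 17 measured members by sign, with a median of -0.62, and no member was free of overlap. Gbp3, an interferon-inducible GTPase gene, was 1.05 to 9.61 against 4.27 to 14.9 TPM (-1.39) and Xaf1 3.94 to 15.8 against 8.18 to 28.6 TPM (-1.34). The list's median was -0.11 among controls, where 4 of the 17 were higher, and -1.12 among selenium livers, and -0.45 over all livers with quantile normalization.

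Acute phase genes, made by hepatocytes in inflammation, were lower on all 18 measured members by sign (median -0.71, with -0.17 among controls, where 5 of the 18 were higher, and -1.31 among selenium livers), again without any free of overlap. Control liver 5 was an exception among the high-Dbp livers. Saa1, serum amyloid A1, was 4541 TPM there and 62.6, 374 and 66 TPM in the other 3, against 195 to 8641 TPM in low-Dbp livers, with the highest in selenium liver 3. Lcn2, lipocalin 2, was 1792 TPM in control liver 5 and 5.61, 55.5 and 11.3 TPM in the other 3, against 55 to 1409.5 TPM. Hp, haptoglobin, named after its values were seen, was 9127 TPM in control liver 5, 1804, 2184 and 1344 TPM in the other 3 and 3699.5 to 7666 TPM in the low-Dbp livers. Without control liver 5 the list's median was -1.29 and that of the interferon list -0.87.

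The 93 genes apart without control liver 5 were 7 higher (0.0711% of genes) and 86 lower (0.873%). Of the 86 lower, 13 were H2 genes of the major histocompatibility complex (of 26 measured, a group picked after its values were seen), 4 were on the interferon list (of 17 measured) and 5 on the acute phase list (of 18). Cd74, the invariant chain of class II molecules, was 63, 86.9 and 23.4 TPM in control liver 6 and selenium livers 1 and 5, 1446 TPM in control liver 5 and 109 to 646 TPM in the low-Dbp livers. The class II gene H2-Ab1 was 21.8, 28.1 and 6.7 TPM in those 3, 259 TPM in control liver 5 and 45 to 138 TPM in the low-Dbp livers. Psmb9, an immunoproteasome subunit gene, was 9.58, 12 and 4.31 TPM against 40.0 TPM in control liver 5 and 16 to 83 TPM. Tap1, the peptide transporter gene, was 4.74, 6.72 and 1.8 TPM, 7.96 TPM and 6.91 to 23 TPM in the same order. H2-Ab1, Psmb9 and Tap1 were named after their values were seen. Control liver 5 was thus above every low-Dbp liver in Cd74 and H2-Ab1, and within the low-Dbp range in Psmb9 and Tap1.

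**Figure D5:**
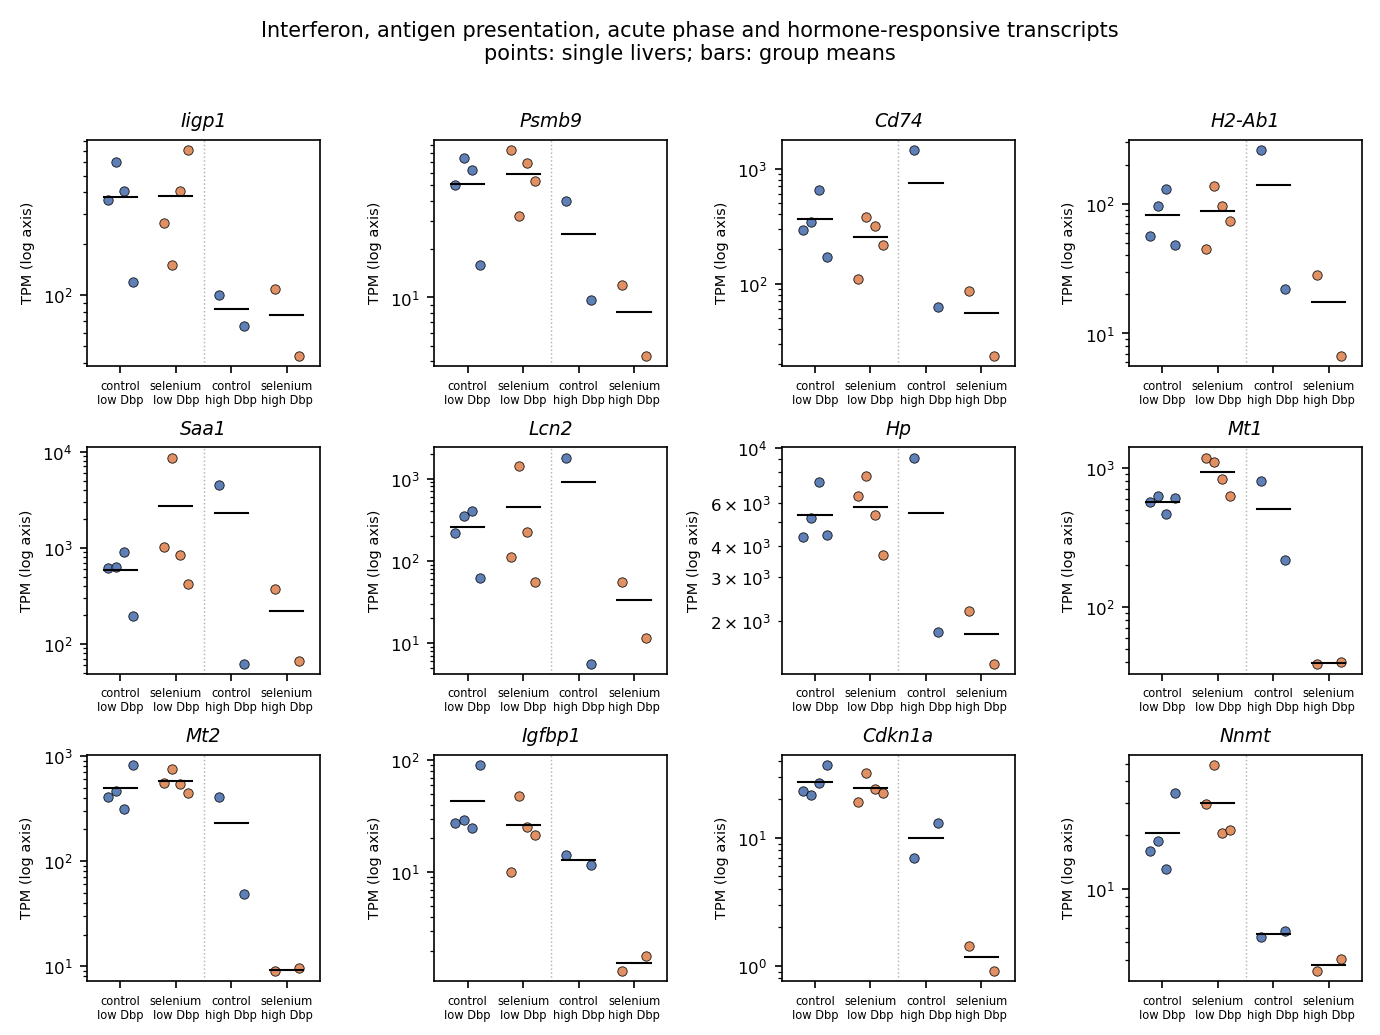
Level in TPM (log axis) of 12 interferon, antigen presentation, acute phase and hormone-responsive transcripts in each liver, by treatment and Dbp class; each point is 1 liver and each bar a group mean. For Cd74, H2-Ab1, Saa1, Lcn2 and Hp, control liver 5 is far above the other 3 high-Dbp livers, whereas Cdkn1a and Nnmt are low in all 4.

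Markers of other liver cells were set beside these groups. In the macrophage list 11 of 12 members were lower (median -0.47, -0.02 in controls and -0.98 in selenium livers), and its summed level was 87.6 to 421 TPM in high-Dbp and 125 to 512 TPM in low-Dbp livers. Lyz2, a lysozyme gene of myeloid cells, was 287 and 101 TPM in control livers 5 and 6 and 53.9 and 14.7 TPM in selenium livers 1 and 5, and Clec4f, the Kupffer cell receptor gene, 12.6 and 34.8 TPM in control livers 5 and 6 and 33.8 and 22.7 TPM in selenium livers 1 and 5. Their low-Dbp ranges were 11.3 to 175 and 15.2 to 54 TPM. B cell markers summed to 46.2 to 1480.2 TPM in high-Dbp and 135 to 682 TPM in low-Dbp livers, T and NK cell markers to 2.36 to 45.8 and 4.21 to 27.2 TPM, and neutrophil markers to 3.44 to 97.9 and 4.57 to 72 TPM. Spp1, on the cholangiocyte list, was 266 TPM in control liver 5 and 129 TPM in selenium liver 3. All 5 measured erythroid markers were higher in high-Dbp livers (median 0.84, and 0.28 without control liver 6), with summed levels of 679, 4271, 1494 and 754 TPM in the 4 against 378 to 1282 TPM, so control liver 6 stood out and the ranges overlapped. No list of other cell types had a member free of overlap. The part of these cell types in the differences above was not tested.

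All 13 mitochondrial-encoded mRNAs were higher by sign in high-Dbp livers (median 0.22), and the share of all mitochondrial genes in the TPM, ribosomal and transfer RNAs included, was 12.6 to 22.8% there and 8.10 to 19.6% in low-Dbp livers. Rescaling the values without these genes left 13 of the 17 genes apart and no others. The number of genes at 1 TPM or more was 9230 to 10533 per library, and pairwise correlations of log2 levels over the 9980 genes were 0.935 to 0.986. The number of reads behind each value is unknown, because TPM carries no depth.

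With the Dbp class as a covariate, selenium and control livers differed in 46 of 9979 genes, 5 higher (0.0501%) and 41 lower (0.411%) in selenium livers. Without the covariate 33 genes passed, and all 33 were among the 46. No gene of the 3 core clock lists passed. Nr1d1 had a difference of 1.57 with an adjusted p of 0.0529, and Arrdc3 1.43 with 0.0529, just short of the threshold (limma). The genes that fell included 6 of the 19 splicing and nuclear RNA genes, whose list median was -0.62 beside -0.03 for all genes. Because that list was written with earlier results of these data known, its count and median are descriptions only. Malat1, a nuclear long noncoding RNA, was 17.6 to 61.6 TPM in the 6 controls and 5.72 to 11.7 TPM in the 6 selenium livers without overlap, a difference of -1.94 (95% interval -2.49 to -1.39, adjusted p = 0.00815). Srsf5 fell by 1.17 (adjusted p = 0.00642), Rsrp1 by 1.10 (0.0065) and Clk1 by 1.09 (0.0103). Ifrd1, an interferon-related developmental regulator gene, fell by 1.08 (0.0136), Wsb1 by 1.25 (0.0256), Ankrd16 by 0.92 (0.0356), and Nfkbia, the inhibitor of NF-kappa-B, by 0.75 (0.0356). The named genes that rose were Sel1l3 (0.63, adjusted p = 0.0398), Inhbe, a hepatokine gene of the activin family (0.73, 0.0425), Nme6 (0.65, 0.0474) and Mavs, the adaptor of RNA sensing (0.88, 0.0497).

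No gene of the 46 was free of overlap between the Dbp classes, although some differed in level. The high-against-low differences were 0.49 for Malat1, -0.08 for Srsf5, -0.27 for Clk1 and -0.62 for Rsrp1. For Gadd45g, also among the 46, the difference was -1.30. The split of higher and lower calls depended on scaling: 21 and 41 with median-of-ratios scaling and 15 and 32 with quantile normalization, against 5 and 41. Without adjustment, 755 genes were higher and 1174 lower at p under 0.05. Leaving out 1 liver gave 753 genes without control liver 6. It gave 25, 8, 29 and 15 without control liver 1, 2, 3 or 5, and 17, 12, 18, 12 and 11 without selenium liver 1, 2, 3, 4 or 5. Rescaled without the mitochondrial-encoded genes, 198 passed, and in that fit 45 of the 46 remained.

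In the high-Dbp livers alone, 2 selenium against 2 control, no gene passed (0% of 9979, limma). The smallest adjusted p was 0.0523, and 71 genes were higher and 1159 lower at an unadjusted p under 0.05. The interaction of treatment and class was past the threshold for no gene (0%), with 45 higher and 919 lower at an unadjusted p under 0.05. Among its named genes, the difference of differences was -2.15 for Cdkn1a (adjusted p = 0.254) and 1.25 for Hhex, a hepatic transcription factor gene (adjusted p = 0.455). The all-gene median of the selenium difference in high-Dbp livers was -0.17, and 0.00 with median-of-ratios scaling. Without control liver 6 the high-Dbp count was 272 and the interaction count 9, without control liver 5 the former was 8, and without selenium liver 5 the latter was 1. In these fits a class is left with 1 liver of a treatment, whose spread is assumed equal to that of the others. Without selenium liver 3 the high-Dbp count was 15.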

How the data were processed

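The deposited table gives TPM (length-scaled transcript abundance) for 57010 genes in 12 liver libraries, made by the authors. HISAT2 2.1.0, RSEM 1.2.8 and the build GRCm39 are named in the submitters' processing notes, without their roles. TPM carries no read depth, so no counting error can be given. The deposited single-library tables held the same values.

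Here, 9980 genes with at least 1 TPM in at least 6 libraries were kept and transformed to log2(TPM + 1). Limma 3.58.1 in R 4.3.3 (intensity trend, two-sided, Benjamini-Hochberg, threshold 0.05) fitted Dbp class with treatment as covariate for the description of the classes, treatment with class as covariate, and 4 groups of treatment by class for contrasts within a class and their interaction. In these 4 groups all 12 livers share 1 spread. Dbp itself was not tested, which left 9979 genes. The spread is between livers labelled as separate samples.

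Named genes were every measured clock member, up to 12 genes per direction among those apart (at least 5 TPM in a class and no clone-like symbol), of each other list the 3 with the largest difference and the first 2, and the 8 with the smallest p per direction for treatment and interaction. Some of these are not reported here. Other genes were named after their values were seen. The members and lists were chosen with earlier results of these data known. Alternatives changed the pseudocount (0.1, 0.5), the filter (none, 5 TPM), the scaling, the class threshold (20 TPM) and the covariates, removed the mitochondrial-encoded genes, added the replicate block, or left out each liver. Simulated data were used to test only the fit of treatment with class as covariate. Promoter windows came from RefSeq on GRCm38.p6, a build other than that of the deposited values, so they were joined by gene symbol.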

Additional observations from a re-analysis of the deposited data

Results flagged for a closer look

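In each treatment group of 6 livers, 1 liver far from the nearest other was looked for in genes of the text (Dixon's test at the 95% level). Of 176 groups of values 28 met the rule. The test's rate of about 1 in 20 holds for normal values of genes not picked by their values, so no excess is read from this count. Some of these genes were named after their values were seen, and each group mixes both Dbp classes. No explanation was tested.

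Among clock genes, control liver 4 stood far above the other controls in Clock (3.77 TPM), Cry1 (12.8 TPM) and Rora (5.36 TPM). Control liver 6 did so in Cry2 (5.86 TPM), Per3 (0.82 TPM) and Ciart (4.88 TPM), and selenium liver 5 in Ciart (2.41 TPM). Arrdc3 reached 55 TPM in selenium liver 1.

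Inflammation-related genes set 1 liver of each treatment far above its group. In control liver 5 these were Saa1 (4541 TPM), Lcn2 (1792 TPM), Orm2 (2171 TPM), Lyz2 (287 TPM) and Spp1 (266 TPM). In selenium liver 3 the same 5 genes stood out, with Saa1 at 8641 TPM, Lcn2 at 1409.5 TPM, Orm2 at 1117 TPM, Lyz2 at 175 TPM and Spp1 at 129 TPM, and so did the heat shock gene Hspa1b (77.7 TPM). The former liver is high-Dbp and the latter low-Dbp.

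Of metabolic genes, Thrsp stood out in control liver 6 (51.5 TPM) and selenium liver 5 (60.2 TPM), both high-Dbp livers. Eif4ebp3 did in control liver 4 (86.9 TPM) and selenium liver 2 (45.6 TPM), both low-Dbp livers. Igfbp1 (90.0 TPM) and Cyp3a13 (18.6 TPM) stood out in control liver 4, and Cyp2a5 (258 TPM) in selenium liver 5. In control liver 6 Hba-a2, an alpha globin gene, reached 1915 TPM and Sel1l3 5.16 TPM.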

How the results depend on the processing

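No called result turned to the opposite direction under any alternative run. The 17 genes that stood apart between the Dbp classes became 87 with the class set at 20 TPM and 54 with a difference of at least 0.5, and between 13 and 93 without 1 liver. Genes called between treatments with the class as covariate (46) numbered 2 without a filter, 198 without mitochondrial-encoded genes and 20 with the class at 20 TPM, and between 8 and 753 without 1 liver. For the interaction (0) there were 21 without a filter, and between 0 and 9 without 1 liver. In low-Dbp livers (5) there were 9 with a filter at 5 TPM, 12 with quantile normalization, 13 with median-of-ratios scaling, 453 with the class at 20 TPM and 47 when the low-Dbp livers were fitted alone, and between 3 and 61 without 1 liver. In high-Dbp livers (0) there was 1 with a pseudocount of 0.1 or 0.5, and there were 41 without a filter, 11 with a filter at 5 TPM, 14 without mitochondrial-encoded genes, 6 with the class at 20 TPM and 4 without the trend, and between 0 and 272 without 1 liver. The cause was not tested.

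Same-numbered controls and selenium livers did not deviate together: over 6 pairs the correlation of their deviations ranged from -0.136 to 0.107, with 1 pair over 0.1, and 1 control correlated best with its own number. The numbers were therefore not taken to pair the livers. With the replicate number as a block, 16 genes stood apart between the classes, 2 were called between treatments, 1 for the interaction, 0 in low-Dbp and 1 in high-Dbp livers.

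The main limits are that the classes rest on a measured level, that high-Dbp livers number 2 per treatment, that the hour of collection was not used here, and that TPM gives no depth. A change in a few abundant transcripts moves all other TPM values.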
